A study of Homo sapiens with 6 samples.

Results

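The splicing factors, hnRNPs and associated RNA-processing genes described here are the table entries whose deposited symbol starts with HNRNP, HNRP, SFRS and a digit, SF3A, SF3B, SNRP or PRPF, together with SYNCRIP, PCF11 and PPP1R10. There were 94 such entries of 34594 in all, and they stood for 85 distinct genes. The last 3 genes joined the set with earlier results of these arrays known, so their ATP values are a description and support nothing on their own. Each of the 6 samples, from 2 subclones under 3 conditions, was hybridised to an Illumina bead array. The subclones 1E8 and 2B4 were both derived from PC-3M, a metastatic human prostate cancer cell line that descends from PC-3, so each subclone stands for a single clone. They were cultured without added ATP (control), with 100 µM ATP for 6 h, or with 100 µM ATP for 12 h, all in RPMI medium with fetal bovine serum. Which of the 2 incubation times a control had is not stated, and each subclone has 1 control array for both. Exposure to ATP at a given time and the hours of incubation themselves therefore cannot be told apart.

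Splicing removes introns through the spliceosome, which is built from small nuclear ribonucleoproteins (snRNPs). The SNRP genes encode proteins of the Sm ring, which most of these particles carry, and proteins specific to the U1 or U2 snRNP. The U2 snRNP adds the SF3A and SF3B complexes that recognise the branch point, and the PRPF proteins act in the U4/U6.U5 tri-snRNP and in catalysis. SR proteins (SRSF genes, deposited under the old SFRS symbols, which also cover SR-related genes with other current names) bind exonic enhancers and favour exon inclusion, while hnRNPs coat nascent transcripts and often oppose them. SYNCRIP, also called hnRNP Q, is an RNA-binding protein of mRNA stability and translation. PCF11 couples cleavage and polyadenylation to the release of RNA polymerase II, and PPP1R10 (PNUTS) targets protein phosphatase 1 to chromatin, where it takes part in transcription termination.

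Intensities are the authors' deposited linear values, which can be negative after background subtraction. An entry was called above the detection limit when it exceeded the peak of the array's dim values by 3 background widths. That limit was 29.8 on the 1E8 control array and 43.9 to 52.8 on the other 5. Of the 94 entries, 78 were above the limit on all 6 arrays, 9 on some and 7 on none. Differences are on the scale of log2(intensity + 16), which understates changes of dim entries. They come from limma over 11083 tested entries with subclone and condition as terms, and ± gives the SE of that fit. Each group holds 1 array, so p-values set a difference only against the departure of the 6 arrays from the additive model. That departure may be technical, and it holds no spread between replicates. Of the members, 78 entries of 78 distinct genes were tested, 70 of them above the limit on all 6 arrays, and 9 dimmer second entries of a gene were left out of the test. The arrays looked like the labelled line: all 6 markers expected in a PC-3 derivative (KRT8, KRT18, KRT19, VIM, HOXB13 and EPCAM, deposited as TACSTD1) were above the limit on all 6 arrays. The 4 fibroblast markers were above it on none. Of the leukocyte and endothelial markers CD68 and PECAM1 alone were above it, on all 6 arrays.

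The 7 entries above the limit on no array were HNRNPCL1, HNRNPF, PRPF39, PRPF40B, SFRS12IP1, SFRS13B and SNRP70. An entry at background describes its probe and not the gene. SNRP70 lay between -21.1 and -6.30, whereas a second entry of the same gene, the U1 protein SNRNP70, which the prefix rule does not take in, lay between 613 and 729. The entries above the limit on some arrays were HNRNPA1L2, HNRNPUL1, PRPF18, PRPF4B and SFRS16 on 1 array, SNRPE on 2, SF3A1 and SNRPN on 3, and HNRNPA3P1 on 5. HNRPA1L-2 and HNRPA1P4 are named for near-identical copies of HNRNPA1, and SNRPN shares its transcript with SNURF, so the source of their signal is uncertain. For 9 genes a pair of entries was present, which gives a measure of probe error. Over the 8 genes with both entries above the limit on all 6 arrays, the ATP-minus-control differences of the paired entries differed by a median of 0.107 and at most 0.482 on the log2 scale. The sign was shared in 25 of 36 comparisons over all 9 genes.

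With ATP, SYNCRIP and PPP1R10 had the lowest values of the 78 tested members, and 17 of 20 SFRS entries had negative values against 4 of 12 SNRP entries (13 and 2 with the arrays scaled to 1 median). SYNCRIP was at 978 on the 1E8 control array, 600.0 at 6 h and 533 at 12 h. In 2B4 it was at 819, 535 and 373. All 4 ATP arrays lay below both control arrays. The difference of ATP (mean of both times) from control was -0.81 ± 0.12. The adjusted p was 0.211, the joint smallest of any entry in that comparison, so SYNCRIP did not pass the threshold of 0.05. The value was -0.65 ± 0.14 at 6 h (adjusted p = 0.242) and -0.98 ± 0.14 at 12 h (adjusted p = 0.328). Leaving out each array in turn kept the ATP value between -0.88 and -0.74.

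HNRNPR, the closest paralogue of SYNCRIP, was carried by the entries HNRPR and HNRNPR. HNRPR was at 1698, 1274 and 1641 in 1E8 (control, 6 h, 12 h) and at 1881, 1654 and 1700.1 in 2B4. HNRNPR was at 884, 703 and 755 in 1E8 and at 886, 864 and 904 in 2B4. The 1E8 6 h array was thus the lowest for both entries. The ATP value of HNRPR was -0.20 ± 0.12 (adjusted p = 0.609), and the mean over the 4 array pairs was -0.14 for the HNRNPR entry.

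PPP1R10 was at 149.8, 108 and 96.3 in 1E8 (control, 6 h, 12 h) and at 186, 118 and 56.2 in 2B4. All 4 ATP arrays again lay below both controls, and the lowest, 2B4 at 12 h, was near the limit of 43.9 on that array. The ATP value was -0.76 ± 0.20 (adjusted p = 0.306), with -0.50 ± 0.23 at 6 h (adjusted p = 0.531) and -1.02 ± 0.23 at 12 h (adjusted p = 0.379). Against its own control the 12 h array was at -0.56 in 1E8 and at -1.48 in 2B4. Without the 2B4 control the ATP value was -0.49, and without the 1E8 control -1.04. Leaving out each array gave -0.78 to -0.23 at 6 h (lowest without the 1E8 control, highest without the 2B4 control) and -1.44 to -0.61 at 12 h (without the 1E8 and the 2B4 12 h array).

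PCF11 did not follow that course. It was at 131, 151 and 69.8 in 1E8 (control, 6 h, 12 h) and at 96.4, 166 and 69.9 in 2B4, so in both subclones the 6 h array was the highest and the 12 h array the lowest. The value at 6 h was 0.44 ± 0.16 (adjusted p = 0.458) and at 12 h -0.58 ± 0.16 (adjusted p = 0.458). Without the 1E8 control these were 0.67 and -0.36, and without the 2B4 control 0.22 and -0.81. Without the 2B4 6 h array the 6 h value was 0.28. The opposite signs left an ATP mean of -0.07 ± 0.14. Between the times it was lower at 12 h by -1.02 ± 0.16, the lowest value of any tested member (adjusted p = 0.451), with -0.96 in 1E8 and -1.08 in 2B4.

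**Figure D1:**
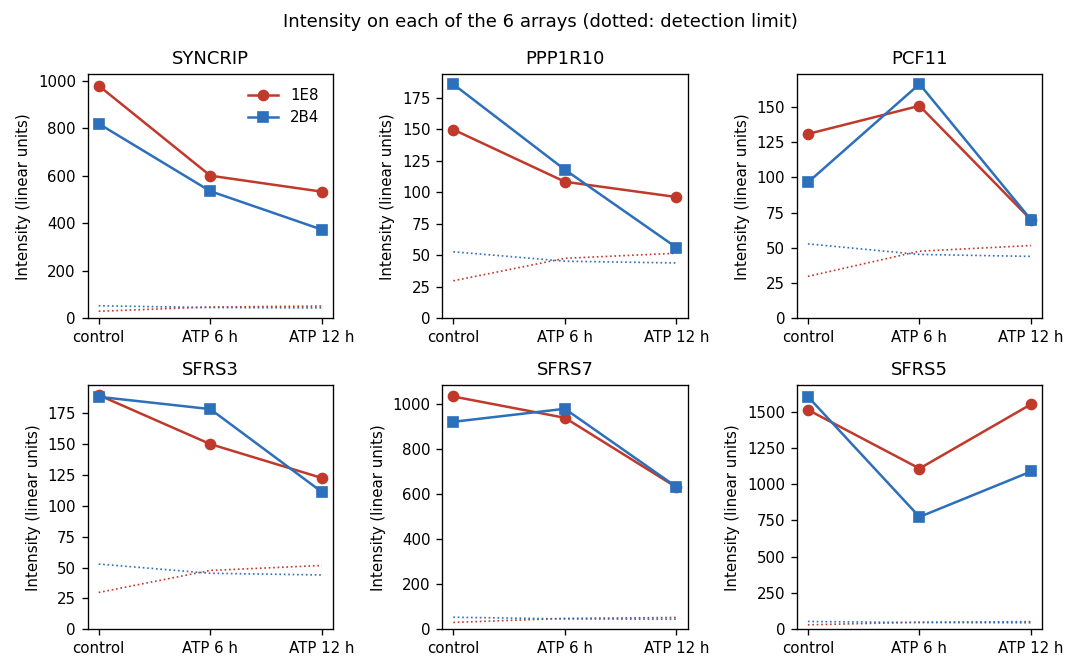
Intensity (linear units, y axis from 0) of 6 members on the control, ATP 6 h and ATP 12 h arrays of 1E8 (red circles) and 2B4 (blue squares), 1 array per point, with the detection limit of each array dotted. SYNCRIP lies at 978 and 819 on the controls and at 533 and 373 at 12 h, while PCF11 peaks at 6 h in both subclones and SFRS5 is lowest at 6 h in both.

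Of the 20 tested SFRS entries, 17 had negative ATP values, with a median of -0.18, against 58.1% negative and a median of -0.03 over all 11083 tested entries. None passed the threshold. Of these 20, 11 carry a current SRSF name, 9 of them negative, with a median of -0.22, and 9 are other SR-related genes such as SFRS18 (PNISR) and SFRS14 (SUGP2), 8 of them negative, with a median of -0.09. With the arrays scaled to 1 median the negative values were 8 of 11 and 5 of 9. SFRS3 (SRSF3), an SR protein that also acts in mRNA export and polyadenylation site choice, was at 189.9, 150.1 and 123 in 1E8 (control, 6 h, 12 h) and at 189, 179 and 111 in 2B4. Its value was -0.19 ± 0.14 at 6 h and -0.63 ± 0.14 at 12 h (adjusted p = 0.383). SFRS7 (SRSF7), its close relative in the family, was at 1032, 937 and 629 in 1E8 and at 919.5, 977 and 631 in 2B4. The 12 h arrays were thus the lowest in both subclones, while the 6 h arrays stood on either side of the control. Its value was -0.03 ± 0.13 at 6 h and -0.62 ± 0.13 at 12 h (adjusted p = 0.379). SFRS5 (SRSF5), known as an insulin-responsive SR protein, took the other order. It was at 1512, 1108 and 1551 in 1E8 and at 1603, 774 and 1087 in 2B4. Its lowest array was at 6 h in both subclones, with a value of -0.74 ± 0.18 (adjusted p = 0.278; -0.44 without the 2B4 control), and by 12 h 1E8 was back at its control level. SFRS10 (TRA2B), an SR-like regulator of exon inclusion, was at -0.26 ± 0.13 for ATP (adjusted p = 0.526). SFRS6 (SRSF6) was among the few with the same sign upward on all 4 ATP arrays, at 0.15 ± 0.11 (adjusted p = 0.682).

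The promoters of the 5 genes with the lowest 12 h values among members above the limit on all 6 arrays are shown because those genes were lower together at 12 h. Each sequence is the 250 bases before a RefSeq gene start on GRCh38.p14, 5′ to 3′ on the gene's strand, with motif matches in capitals. The windows are chr6:85643871-85644120 (minus strand) for SYNCRIP, chr6:30617244-30617493 (minus) for PPP1R10, chr11:83156881-83157130 (plus) for PCF11, chr6:36594112-36594361 (plus) for SRSF3 and chr2:38751495-38751744 (minus) for SRSF7.
SYNCRIP: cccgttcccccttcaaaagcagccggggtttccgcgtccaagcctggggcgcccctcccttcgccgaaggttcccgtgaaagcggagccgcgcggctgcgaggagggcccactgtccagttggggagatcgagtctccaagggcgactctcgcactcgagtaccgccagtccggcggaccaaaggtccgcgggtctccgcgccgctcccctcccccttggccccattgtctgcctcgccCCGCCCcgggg
PPP1R10: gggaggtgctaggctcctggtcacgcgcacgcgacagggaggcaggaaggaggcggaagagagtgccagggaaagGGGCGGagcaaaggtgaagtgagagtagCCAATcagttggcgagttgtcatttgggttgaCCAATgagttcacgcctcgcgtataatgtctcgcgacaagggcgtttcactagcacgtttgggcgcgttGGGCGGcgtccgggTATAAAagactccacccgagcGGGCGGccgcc
PCF11: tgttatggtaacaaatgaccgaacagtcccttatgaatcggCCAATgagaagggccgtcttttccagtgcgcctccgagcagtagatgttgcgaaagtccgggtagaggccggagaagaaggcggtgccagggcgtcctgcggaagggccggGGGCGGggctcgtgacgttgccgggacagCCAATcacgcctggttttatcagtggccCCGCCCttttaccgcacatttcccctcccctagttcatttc
SRSF3: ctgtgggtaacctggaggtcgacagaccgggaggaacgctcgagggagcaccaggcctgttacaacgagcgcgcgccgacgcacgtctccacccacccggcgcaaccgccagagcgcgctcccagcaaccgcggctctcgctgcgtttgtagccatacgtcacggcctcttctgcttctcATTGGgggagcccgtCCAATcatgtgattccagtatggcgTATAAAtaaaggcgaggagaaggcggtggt
SRSF7: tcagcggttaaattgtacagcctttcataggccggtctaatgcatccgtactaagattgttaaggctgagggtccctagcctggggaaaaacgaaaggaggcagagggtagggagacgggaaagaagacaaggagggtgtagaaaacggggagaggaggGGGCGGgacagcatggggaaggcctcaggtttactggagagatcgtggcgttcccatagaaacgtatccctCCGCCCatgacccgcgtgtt

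The motifs searched, on both strands and with overlaps allowed, were CCAAT (the CCAAT box), GGGCGG (the GC box), CCGGAAG (an ETS motif), CACGTG (the E-box), TGACGTCA (the CRE) and TATAAA (the TATA box). No motif contains another. CCAAT occurred at 2 places each in the windows of PPP1R10, PCF11 and SRSF3, and in 32.0% of all 35116 RefSeq windows of that length. GGGCGG occurred in the windows of SYNCRIP (1 place), PPP1R10 (3), PCF11 (2) and SRSF7 (2). It was in 42.6% of all windows and in 53.7% of windows of protein-coding genes. TATAAA occurred in those of PPP1R10 and SRSF3, and in 10.7% of all windows. RefSeq held windows for 73 of the 85 member genes, 99 windows in all, some of them overlapping starts of 1 gene. CCGGAAG was in 30 of these 99 (30.3%), against 8.52% of all windows and 10.7% of windows of protein-coding genes. The E-box was in 12.1% against 6.35% of all, and the CRE in 0 of 99 against 1.65%. Of windows of protein-coding genes 7.4% held the E-box and 2.01% the CRE. None of the 5 windows shown holds the ETS letters. RefSeq lists several starts for SRSF7, and only the window before the outermost was searched for this count.

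The hnRNP genes other than SYNCRIP lay close to all entries. The 23 tested HNRNP and HNRP entries had ATP values from -0.23 to 0.17, with 15 negative and a median of -0.06. HNRNPH2, which binds runs of G, was at 95.5, 104 and 101 in 1E8 (control, 6 h, 12 h) and at 137, 173 and 161 in 2B4, with an ATP value of 0.17 ± 0.11 (adjusted p = 0.632). HNRNPA3 was the other tested hnRNP entry above its control on all 4 ATP arrays, at 0.07 (adjusted p = 0.871). The dimmer, untested entries HNRPK and HNRPM were above it on all 4 too, by 0.04 to 0.20 and 0.04 to 0.17, while the brighter entries HNRNPK and HNRNPM were not. At 12 h HNRNPL, a binder of CA repeats, was at 0.18 ± 0.15 (adjusted p = 0.766). The 1E8 arrays alone carry that value, with 582, 761 and 746 in 1E8 against 649.5, 618 and 654 in 2B4.

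The 12 tested SNRP entries had a median ATP value of 0.03, with 8 positive. That median covers values on either side of 0, since the family median was -0.05 and -0.03 in 1E8 (6 h and 12 h) and 0.11 and 0.16 in 2B4. Over all tested entries these medians were -0.07 and -0.08 in 1E8 and 0.00 at both times in 2B4. The interaction values of the SNRP entries, 1E8 minus 2B4, were negative for 9 of 12, with a median of -0.15. Of all tested entries 58.0% were negative, with a median of -0.07. With the arrays scaled to 1 median 6 of the 12 were negative, and none passed the threshold. Next to these, the 6 SF3B entries had a median of 0.01. Of the 3 SF3A entries, SF3A3 was at 1533, 2083 and 1821 in 1E8 (control, 6 h, 12 h) and at 1775, 1984 and 1763 in 2B4, with 0.30 ± 0.14 at 6 h (adjusted p = 0.544). The U1 protein gene SNRPC was at 0.15 ± 0.14 at 12 h (adjusted p = 0.782). PRPF8, the scaffold of the catalytic core, was at 0.10 ± 0.11 for ATP (adjusted p = 0.788). PRPF38B was at 99.7, 129 and 76.6 in 1E8 and at 63.6, 97.8 and 66.6 in 2B4, the 6 h array being the highest in both subclones as for PCF11. Its value was 0.42 ± 0.15 at 6 h (adjusted p = 0.421).

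**Figure D2:**
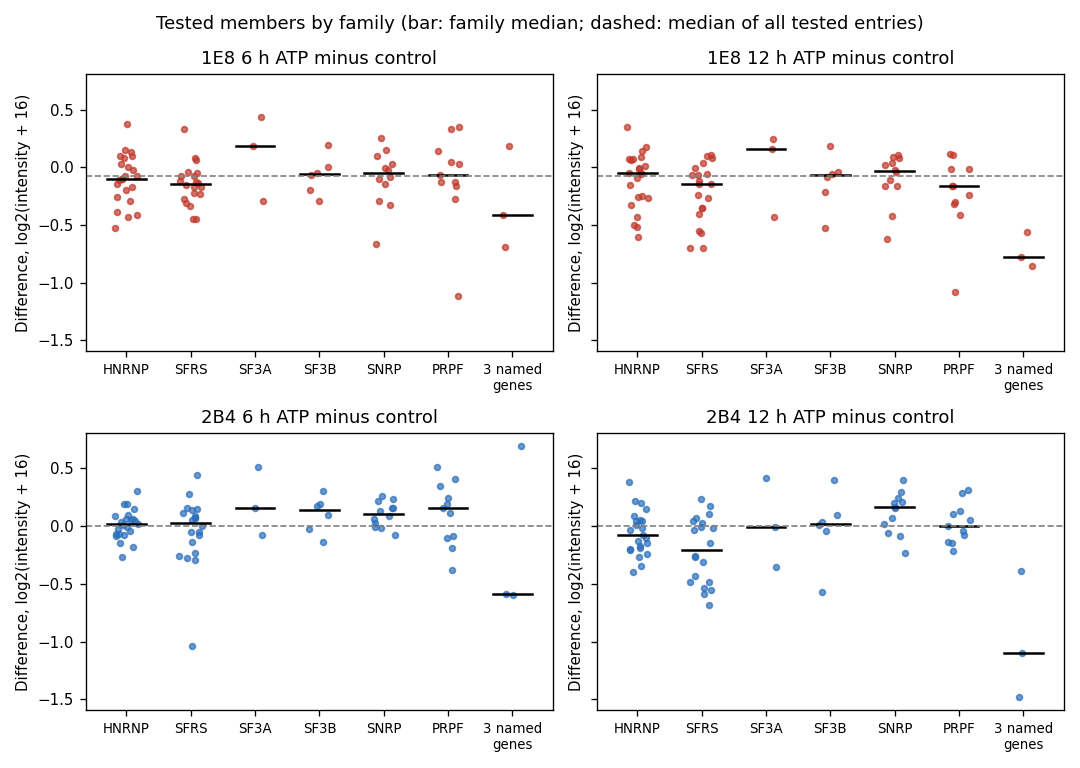
Difference of each ATP array from the control array of its subclone on the log2(intensity + 16) scale (y axis) for the 78 tested members, grouped by family (x axis), 1 point per entry, with the family median as a bar and the median of all 11083 tested entries dashed. The SFRS median is -0.14 in both 1E8 pairs, 0.03 in 2B4 at 6 h and -0.20 in 2B4 at 12 h, while the SNRP median reaches 0.16 in 2B4 at 12 h.

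Counted over the set, limma called 0 of 78 members and 0% of all tested entries for ATP, at 6 h, at 12 h and between the times. At an unadjusted p under 0.05, 0 members were higher and 6 lower for ATP, against 3.17% and 7.07% of all entries, so that the members' 7.69% lower was near the background. At 6 h 2 members were higher and 3 lower, against 3.22% and 6.63%. At 12 h 0 were higher and 8 lower (10.3% of members), against 2.64% and 6.54%. SYNCRIP, PPP1R10 and PCF11, which joined the set with these results known, are 3 of the 8, and without them 5 of 75 (6.67%) were lower, near the background. Those 8 were SYNCRIP, PPP1R10, PCF11, SFRS3, SFRS7, SFRS10, SFRS13A and SFRS16, of which SFRS16 was above the limit on the 1E8 control alone. Lower than control on all 4 ATP arrays were 15 members (19.2%) against 17.9% of all entries, and higher on all 4 were 4 members (5.13%) against 10.2%. The 4 pairs share 2 control arrays. At 12 h 29 members, SYNCRIP, PCF11 and PPP1R10 among them, were lower in both subclones (37.2%), against 29.8% of all entries. Higher in both were 8 (10.3%), against 19.5%.

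The signs of small differences depended on the scaling. Scaling the arrays to 1 median moved the median of all entries in the 1E8 pairs from -0.07 to 0.02 at 6 h and from -0.08 to 0.03 at 12 h. With it the members went from 29 positive and 49 negative ATP values to 42 and 36 (37 and 41 after quantile normalization). At 6 h they went from 35 and 43 to 50 and 28 (44 and 34), and at 12 h from 25 and 53 to 33 and 45 (32 and 46). Under that scaling SYNCRIP was between -1.10 and -0.59 on the 4 pairs and PPP1R10 between -1.48 and -0.32.

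Lower at 12 h than at 6 h were 59 of 78 members, against 49.4% of all entries, with a member median of -0.07 and 0.00 over all entries. Without SYNCRIP, PCF11 and PPP1R10, which joined the set with results known, 56 of 75 (74.7%) were lower. The 5 partner lists described further on were chosen with earlier results of these arrays known. In them 89 of 118 genes (75.4%) were lower, against 49.4% of all entries. By list these were 37 of 48 other spliceosome components, 28 of 35 splicing regulators and 9 of 11 snRNP assembly genes. Of the partners of PCF11 12 of 19 were lower, and of those of PPP1R10 3 of 5. The lean was thus not particular to the members, and the lists give it no support. In both subclones 37 members, SYNCRIP, PCF11 and PPP1R10 among them, were lower at 12 h (47.4%), against 29.1% of all entries. Higher in both were 13 (16.7%), against 30.1%. This comparison uses no control array, and the 1E8 and 2B4 pairs share no array. The split was 23 positive and 55 negative under scaling to 1 median and 21 and 57 after quantile normalization. The median of all entries was 0.012 and 0.006 in these settings. It was 30 and 48 without the 2B4 6 h array, with a member median of -0.03, and 27 and 51 without the 1E8 12 h array. At an unadjusted p under 0.05, 6 members were lower and 1 higher, against 3.63% and 3.33% of all entries. After PCF11 the lowest values were those of SFRS7 (-0.59 ± 0.13), PRPF38B (-0.56 ± 0.15) and PPP1R10 (-0.52 ± 0.23), with adjusted p of 0.520, 0.595 and 0.726. PPP1R10 was at -0.15 in 1E8 and -0.89 in 2B4, and its value was -0.10 without the 2B4 12 h array and -0.94 without the 1E8 12 h array. PRPF4, a protein of the U4/U6 snRNP, was at 808, 837 and 652 in 1E8 (control, 6 h, 12 h) and at 769.9, 1027 and 697 in 2B4, a value of -0.45 ± 0.14 (adjusted p = 0.630). SFRS5 had the highest, 0.48 ± 0.18 (adjusted p = 0.662), equal in 1E8 and 2B4 at 0.48. Of the members above the limit on all 6 arrays and higher in both subclones, SFRS2B (SRSF8) at 0.26, HNRNPUL2 at 0.20 and HNRPR at 0.20 followed. HNRPR was at 0.06 without the 1E8 6 h array.

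**Figure D3:**
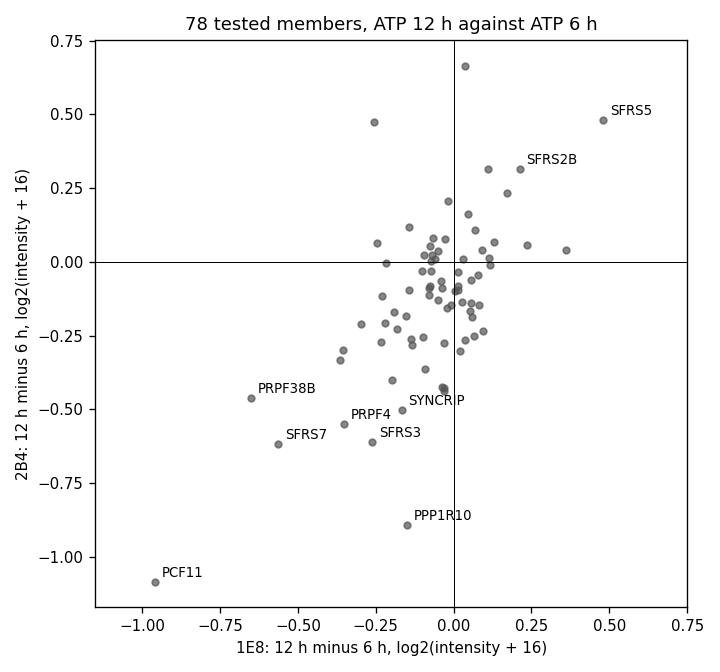
Difference between the ATP 12 h and 6 h arrays on the log2(intensity + 16) scale in 1E8 (x axis) and 2B4 (y axis), 1 point for each of the 78 tested members. The 37 points in the lower left quadrant are lower at 12 h in both subclones, with PCF11 at -0.96 and -1.08, and SFRS5 is at 0.48 in both.

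Between the subclones 6 members passed the threshold. SNRPN, which encodes the Sm protein SmN from an imprinted locus on chromosome 15 and can stand in for SmB in the Sm ring, was above the limit in 1E8 alone. It was at 208, 207 and 224 in 1E8 (control, 6 h, 12 h) and at 6.83, 6.57 and 12.0 in 2B4, where all 3 arrays were under the limit. The mean was 213 ± 10.0 in 1E8 and 8.48 ± 3.09 in 2B4 (SD over 3 arrays of different conditions), so that SNRPN was at least 4.51-fold higher in 1E8, measured against the 2B4 limits (limma adjusted p = 3.72e-05). Against the 1E8 control it was at -0.01 at 6 h and 0.10 at 12 h. SNURF, the upstream reading frame of the same transcript and no member of the set, was at 135, 132 and 135 in 1E8 and at 3.96, 1.30 and 7.34 in 2B4, at least 2.84-fold higher in 1E8. SNRPN entered the test only through 1E8, where it is bright, so its call supports nothing about the set.

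The 250 bases before the RefSeq start that SNRPN shares with SNURF are shown because the signal of both genes separated the subclones. The window is chr15:24954737-24954986 on the plus strand of GRCh38.p14, with 12 CG dinucleotides and 63.6% G and C. None of the 6 motifs above is in it, so it holds no capitals. RefSeq lists further starts for SNRPN, and the arrays do not tell which was used.
SNRPN: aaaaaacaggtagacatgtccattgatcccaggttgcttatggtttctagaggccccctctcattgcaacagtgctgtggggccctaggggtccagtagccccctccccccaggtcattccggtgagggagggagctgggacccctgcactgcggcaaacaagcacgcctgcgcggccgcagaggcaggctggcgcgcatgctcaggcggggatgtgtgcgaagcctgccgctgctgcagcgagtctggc

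The other 5 differences were smaller. SFRS8 (SFSWAP), which regulates its own splicing, was higher in 1E8 by 0.58 ± 0.11 (adjusted p = 0.0166), with 194, 184 and 186 in 1E8 against 141, 114 and 110.5 in 2B4. HNRPUL1 (HNRNPUL1) was higher by 0.43 ± 0.11 (adjusted p = 0.0363), with 644, 598 and 603 against 449, 469 and 438. The second entry of that gene was under the limit on 5 arrays and gives no check. HNRNPA0, a binder of AU-rich elements, was higher by 0.41 ± 0.11 (adjusted p = 0.0419), with 650.5, 586 and 515 against 452, 459 and 390.1. SFRS17A (AKAP17A), an anchor of protein kinase A in splicing speckles, was lower in 1E8 by -0.64 ± 0.12 (adjusted p = 0.0151), with 131, 123 and 117 against 182, 204 and 217. HNRNPH2 was lower by -0.57 ± 0.11 (adjusted p = 0.0154). For each of these 6 genes the 3 arrays of 1E8 and the 3 of 2B4 did not overlap. The share of all entries without such overlap was not counted. These 6 genes were picked by their calls, so the separation adds no support. A shared sign in all 3 matched pairs, a weaker condition, was common, with 21 members (26.9%) higher in 1E8, against 28.2% of all entries. Lower in all 3 were 12 members (15.4%), against 25.1%.

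**Figure D4:**
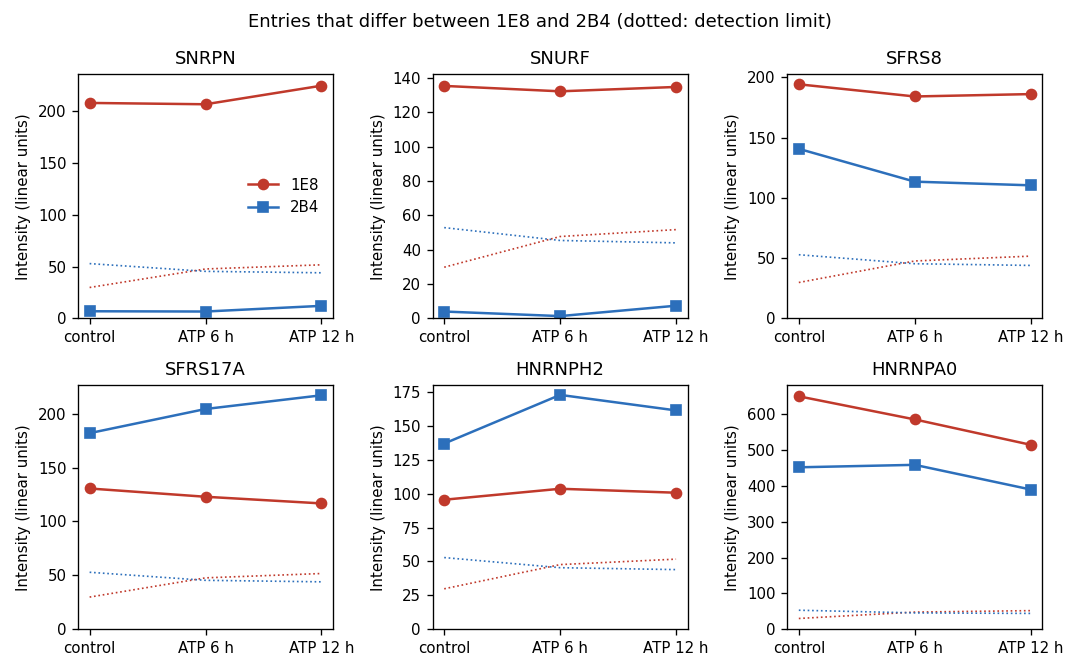
Intensity (linear units, y axis from 0) of SNRPN, of SNURF from the same transcript, and of SFRS8, SFRS17A, HNRNPH2 and HNRNPA0 on the control, ATP 6 h and ATP 12 h arrays of 1E8 (red circles) and 2B4 (blue squares), 1 array per point, with each array's detection limit dotted. SNRPN lies between 207 and 224 in 1E8 and under the limit on all 3 arrays of 2B4.

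Of the other members, SFRS11 (SRSF11) at 0.49 ± 0.14 (adjusted p = 0.0537), SF3B5 at -0.37 ± 0.11 (adjusted p = 0.0647), PRPF38B at 0.35 ± 0.12 (adjusted p = 0.0876), HNRNPH1 at 0.35 ± 0.11 (adjusted p = 0.0675) and SFRS15 (SCAF4) at -0.35 ± 0.12 (adjusted p = 0.0936) did not pass the threshold. The 4 members called higher were 5.13% of the set, against 9.27% of all entries (3 of 77, 3.90%, without SNRPN), and the 2 called lower were 2.56%, against 8%. At an unadjusted p under 0.05, 13 members were higher and 5 lower in 1E8, against 17.9% and 15.5% of all entries. SYNCRIP (0.30 ± 0.12, adjusted p = 0.122), PCF11 (0.09 ± 0.13, adjusted p = 0.701), PPP1R10 (0.08 ± 0.18, adjusted p = 0.795) and HNRPR (-0.19 ± 0.12, adjusted p = 0.300) were not called. Without 1 array the count of called members was 10 (either control), 2 (either 6 h array) or 1 (either 12 h array), and with no filter on dim entries it was 0, as for all entries. SNRPN had an adjusted p of 0.0637 there.

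Whether ATP acted differently in the subclones was tested with the interaction term, the ATP value in 1E8 minus that in 2B4. No member passed, against 0.00902% of all entries, with a smallest adjusted p among members of 0.149. At an unadjusted p under 0.05, 14 members were lower and 1 higher, against 13.4% and 5.59% of all entries. This count depended on the scaling, with 9 lower and 3 higher under median scaling and 8 lower and 2 higher after quantile normalization. Of all 11083 entries, 993 were lower and 1036 higher under median scaling, and 1123 and 732 after quantile normalization. Scaling moved the median of all entries from -0.07 to 0.03 and the members from 31 positive and 47 negative to 41 and 37 (40 and 38 after quantile normalization). SYNCRIP was at 0.08 ± 0.21 (adjusted p = 0.874), PPP1R10 at 0.55 ± 0.32 (0.402 as the adjusted p), PCF11 at -0.45 ± 0.18 (0.264) and HNRPR at -0.07 ± 0.21 (0.891). SFRS5 was highest at 0.59 ± 0.18 (adjusted p = 0.192), its 6 h difference from control being -0.44 in 1E8 and -1.04 in 2B4. HNRNPL (0.39) and SF3A2 (0.39) followed PPP1R10. Lowest of the members above the limit on all 6 arrays were SFRS12 (SREK1) at -0.65 ± 0.18, HNRNPU at -0.64 ± 0.18, the Sm protein gene SNRPG at -0.60 ± 0.18 and HNRNPH3 at -0.59 ± 0.18, with adjusted p of 0.181 to 0.193. HNRNPU, a nuclear scaffold protein, was at 299, 219 and 207 in 1E8 (control, 6 h, 12 h) and at 189.5, 212 and 221 in 2B4. The 1E8 control array was the highest for these 4 genes, and it was also the array with the lowest limit and the most entries above it, 11225 against 9394 to 9861. The part of that array in these values was not tested. Opposite signs in the subclones, on both ATP arrays of each, were found in 22 of the 70 members (31.4%) and in 30.0% of all entries above the limit on all 6 arrays.

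On single arrays, members at least 2-fold from the control of their subclone were PRPF18 in 1E8 at 6 h and at 12 h (0.794% and 0.487% of all entries were 2-fold lower), SFRS5 in 2B4 at 6 h (0.226%), and PPP1R10 and SYNCRIP in 2B4 at 12 h (0.208%). All of these were lower, and none has a replicate check. PRPF18, a factor of the second catalytic step, was at 33.2, 6.68 and 7.25 in 1E8 and at 25.2, 15.7 and 34.3 in 2B4. It was above the limit on the 1E8 control alone, where the limit was lowest, so its difference rests on values at background.

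Partner genes outside the set were read from the same fit, with lists chosen while earlier results of these arrays were known. Over all tested entries 58.1% of ATP values were negative, with a median of -0.03. At an unadjusted p under 0.05, 3.17% of all entries were higher and 7.07% lower. The lists were read under the main setting alone, and signs of small differences depended on the scaling. Of 48 other spliceosome components tested, 27 had negative ATP values, with a median of -0.04, and at an unadjusted p under 0.05 the list held 0 higher and 2 lower genes. CDC40 (-0.36 ± 0.15) and CWC27 (-0.34 ± 0.11, deposited as SDCCAG10) were lowest, with adjusted p of 0.480 and 0.400, and SNRNP40 (0.18) and DHX38 (0.17) highest. Among 35 splicing kinases and regulators 28 were negative, with a median of -0.16, and 0 were higher and 3 lower at that p. ELAVL1 (HuR), a stabiliser of AU-rich mRNAs, was at 108, 86.3 and 67.2 in 1E8 and at 103, 72.7 and 61.1 in 2B4, a value of -0.48 ± 0.11 (adjusted p = 0.257), and THRAP3 was at -0.45 ± 0.18 (adjusted p = 0.469). The 19 tested partners of PCF11 in 3′ end processing had a median of -0.09 with 1 lower at that p, RPRD1B being at -0.20, NUDT21 at -0.16 and CPSF2 at 0.04. The 5 partners of PPP1R10 had a median of -0.10 with none past that p. PPP1CA, a catalytic subunit of the phosphatase, was at 0.19 ± 0.11 (adjusted p = 0.598). Of 11 snRNP assembly genes, 1 was higher (WDR77, 0.30 ± 0.12) and 2 were lower, among them CLNS1A (-0.29 ± 0.11), with adjusted p of 0.466 and 0.459. PRMT5 was at 0.18 and GEMIN5 at -0.20. No gene of these 5 lists passed the threshold for ATP.

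Between the subclones 8 of the 118 tested genes of these lists (6.78%) were higher in 1E8 and 3 (2.54%) lower past the threshold, against 9.27% and 8% of all entries. Of the regulators, TIA1 (0.62 ± 0.11, adjusted p = 0.0130) and PTBP2 (0.57 ± 0.10, adjusted p = 0.0140) were higher in 1E8, and RBM10 (-0.73 ± 0.11, adjusted p = 0.00782) and CELF1 (-0.39 ± 0.11, adjusted p = 0.0484, deposited as CUGBP1) lower. Of the 3′ end genes RPRD2 (0.48 ± 0.11, adjusted p = 0.0286) and RPRD1B (0.46 ± 0.11, adjusted p = 0.0347) were higher, and CSTF2 (-0.76 ± 0.17, adjusted p = 0.0269) lower. The spliceosome components AQR (0.42 ± 0.11) and RBM39 (0.49 ± 0.13) and the snRNP import adaptor SNUPN (0.38 ± 0.10) were higher with adjusted p of 0.0494, 0.0498 and 0.0481. The 5 partners of PPP1R10 held none.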

How the data were processed

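Per the labels' protocols, total RNA was extracted with Trizol, cleaned on RNeasy columns and labelled as biotinylated cRNA with the Illumina TotalPrep kit. The authors deposited 1 linear intensity per array for each of 34594 entries. Which software produced it is not given in the sources used here. Deposited intensity values show a background subtraction (24.0% to 25.5% below 0) and a common scale. A further table held 6 signal columns whose names match no sample, and they were not used. Depth has no meaning for arrays, and their number limits the precision.

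Negative intensities were set to 0 before log2(intensity + 16). The 3270 sequence clusters and 132 dimmer entries of a gene were left out, and entries above the detection limit on at least 1 array were tested. Names were updated through RefSeq for GRCh38.p14 (17757 current symbols, 3303 unique synonyms, 13534 unmatched). limma 3.58.1 in R 4.3.3 was fitted over all tested entries with Benjamini-Hochberg adjustment and a threshold of 0.05. The additive model leaves 2 residual degrees of freedom, the interaction model 1. The additive fit was run on simulated data with planted changes of 2 log2 units, larger than any ATP value of a member. That run cannot show how the fit treats changes of the size described here. The members, gene lists and tests were chosen with earlier results of these data known. Named are the 4 highest and 4 lowest members per comparison that are above the limit on all 6 arrays and of 1 sign in every pair, all called members, SYNCRIP, PCF11, PPP1R10 and HNRNPR, members at least 2-fold apart on an ATP pair, dim members, and 2 genes each way per list. PRPF4, SNURF, SFRS10, SFRS13A and SFRS16 at 12 h, and the genes around SNRPN, were added after their values were seen.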

Additional observations from a re-analysis of the deposited data

How the results depend on the processing

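No pairing by replicate number was possible, because every group holds 1 array and all share 1 number that cannot serve as a block. Subclone is a term of the main model, which sets each ATP array against the control of its own subclone. Without 1 array, the count of called members ranged from 0 to 1 for ATP, from 0 to 2 for 12 h against control and from 1 to 10 for 1E8 against 2B4, and was 0 for 6 h against control and between the times. In such fits a condition is left with 1 array that is fitted exactly, so calls gained do not count as support. SYNCRIP passed without the 2B4 6 h array for ATP (adjusted p = 0.0344), and SYNCRIP and PPP1R10 passed at 12 h without either 6 h array (0.0307 and 0.049 as adjusted p). For 1E8 against 2B4 6 members were called. An offset of 50 and a mean-variance trend each gave 10, values floored at 50 gave 2 and no filter on dim entries gave 0. Of all 11083 entries, the offset called 1157 higher and 1088 lower, the trend 1160 and 1102, and the floor 281 and 349. Without the filter 0 of 30835 entries were called. For the interaction the trend gave 6 calls, 1 higher and 5 lower. Over all entries it called 195 higher and 545 lower there. The other settings, quantile normalization, scaling to 1 median, the limit passed on all 6 arrays and both ATP times as 1 condition, left each count within 1.5 times of its value. Signs turned for HNRNPL at 12 h without the 1E8 control (-0.02), HNRPR at 12 h without the 2B4 12 h array (0.01), the HNRPR interaction after quantile normalization (0.01) and scaling to 1 median (0.04), PCF11 for ATP without the 1E8 control (0.15) or the 1E8 6 h array (0.01), PCF11 for subclone without either control (-0.06) and PPP1R10 for subclone without either 12 h array (-0.2). Leaving out each array moved these between -0.02 and 0.38 (HNRNPL at 12 h), -0.3 and 0.15 (PCF11 for ATP), -0.06 and 0.19 (PCF11 for subclone), and -0.2 and 0.27 (PPP1R10 for subclone). The cause was not tested. Dim members near the limit bound what these arrays resolve.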

Other observations

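Genes around SNRPN in the imprinted region of chromosome 15 were looked up after the values of SNRPN and SNURF had been seen. UBE3A, which encodes a ubiquitin ligase, was at 347, 353 and 273 in 1E8 (control, 6 h, 12 h) and at 161 (control), 192 and 162 in 2B4, higher in 1E8 by 0.86 ± 0.12 (limma adjusted p = 0.00562). MKRN3 was higher by 0.46 ± 0.13 (adjusted p = 0.0494), but it was above the limit on 1 array alone, so the value rests on background. MAGEL2 was above the limit on all 6 arrays at 60.1, 103 and 99.5 in 1E8 and at 93.7, 61.5 and 66.4 in 2B4, and its subclone groups overlapped (adjusted p = 0.587). NDN was above the limit on no array. ATP10A was above it on 4 arrays, with an adjusted p of 0.597.

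Entry pairs of single hnRNP genes did not always move alike. HNRNPA2B1 was carried by HNRPA2B1, at -0.29 and -0.26 on the 1E8 ATP arrays (6 h and 12 h), and by a dimmer HNRNPA2B1 entry, at -0.62 and -0.57. HNRNPH1 was at -0.11 and -0.24 by its brighter entry and at -0.51 and -0.60 by its dimmer one. For HNRNPH3 the entries lay closer, at -0.39 and -0.61 against -0.44 and -0.67.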
